A study of Oikopleura dioica with 8 samples.

Results

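Orthologs of 6 human TOP genes that are not ribosomal protein genes were followed through growth arrest and release in the marine chordate *Oikopleura dioica*. They are EEF1A1 (GSOIDT00006619001), EEF2 (GSOIDT00003020001), PABPC1 (GSOIDT00001070001), EIF3A (GSOIDT00001369001), TPT1 (GSOIDT00000824001) and GNB2L1 (GSOIDT00007647001). They were taken by identity from the paper's list of 88 *O. dioica* genes with a human TOP ortholog, in which all 6 carry the spliced leader, and they are 6 of the 17212 gene models of the count table. The entry called EEF1A1 here is listed as the ortholog of both EEF1A1 and EEF1A2. Human gene names are used throughout, and since how reads that match more than 1 place were handled is not given in the sources used here, counts of near-identical copies of these genes, if the genome holds any, are uncertain.

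Stasis is the growth arrest that *O. dioica* enters when it is crowded and short of food. Whole animals of the species were sampled in stasis on day 7, or 30 min after they were moved back to normal density. The paper describes this as day 7 of growth arrest and also as past the animals' normal lifespan. Whether the days count age or arrest is thus not clear. Each sample pooled many animals with all their tissues. There were 2 samples per state, and from each of them total RNA and ribosome protected fragments (RPF, the pieces of mRNA left after nuclease has removed what ribosomes do not cover) were sequenced, in 8 libraries. Per the paper, total RNA was taken from only part of the animals of each sample. Per the paper, food was given at release, where stasis had been brought on by crowding and fewer feeds, so density and food changed together and cannot be told apart. All animals had gone through the same arrest. In whole animals, fewer cells of a type and less RNA per cell cannot be told apart.

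TOP mRNAs begin with a run of pyrimidines, the terminal oligopyrimidine motif, which lets the kinase mTOR hold back or allow their translation according to nutrients. In *O. dioica* the motif is missing from such genes, and a pyrimidine-rich spliced leader is put on the 5′ end of most of their mRNAs by *trans*-splicing. Most TOP mRNAs encode ribosomal proteins. The 6 genes here encode other parts of the translation apparatus and proteins tied to growth, with roles known from humans and other model species. EEF1A1 brings aminoacyl-tRNA to the ribosome and EEF2 moves the ribosome along the mRNA. PABPC1 binds the poly(A) tail and EIF3A is the scaffold subunit of initiation factor eIF3. TPT1 is the translationally controlled tumour protein, and GNB2L1, also named RACK1, is a scaffold protein on the small ribosomal subunit.

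The total RNA libraries held between 13041273 and 22839600 reads. The RPF libraries of replicate 1 held 1488886 reads in stasis and 1240592 on release, and those of replicate 2 held 261745 and 308680. A group of 7 gene models, none of them among the 6, took 57.1% of the reads of the stasis replicate 2 RPF library and 41.7% of those of release replicate 2, against 23.8% and 19.9% in replicate 1. All 6 genes were covered in every library, with 2616 to 41353 total RNA reads and 19 to 2845 RPF reads. They made up 0.494% to 0.747% of total RNA reads and 0.274% to 0.397% of RPF reads. Levels are given as CPM, counts per 1000000 reads, scaled with TMM factors within each kind of library. CPM is not divided by gene length, so levels are compared between samples and not between genes. Every change was tested with edgeR's quasi-likelihood test across the 14595 gene models with at least 100 reads, with Benjamini-Hochberg adjusted p and a threshold of 0.05, and standard errors (SE) were calculated back from that test. The paper calls the samples of a state biological replicates, and neither it nor the labels say whether they came from separate cultures, so p-values measure the spread between these samples only.

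By the order of their samples in CPM the genes showed 3 patterns. EEF2, PABPC1 and EIF3A had less RNA but more RPF in both release samples than in both stasis samples. EEF1A1 had more RNA in both release samples, without more RPF. TPT1 and GNB2L1 overlapped between the states in every measure. Of these differences, the lower RNA of PABPC1 and EIF3A passed the test. As plain library shares, without TMM, EIF3A overlapped between the states in RPF, and GNB2L1 was lower in both release samples in RNA. Among all gene models, both release samples lay below both stasis samples in RNA for 31.6% and above them for 31.3%. In RPF they lay above for 12.8% and below for 10.3%.

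**Figure D1:**
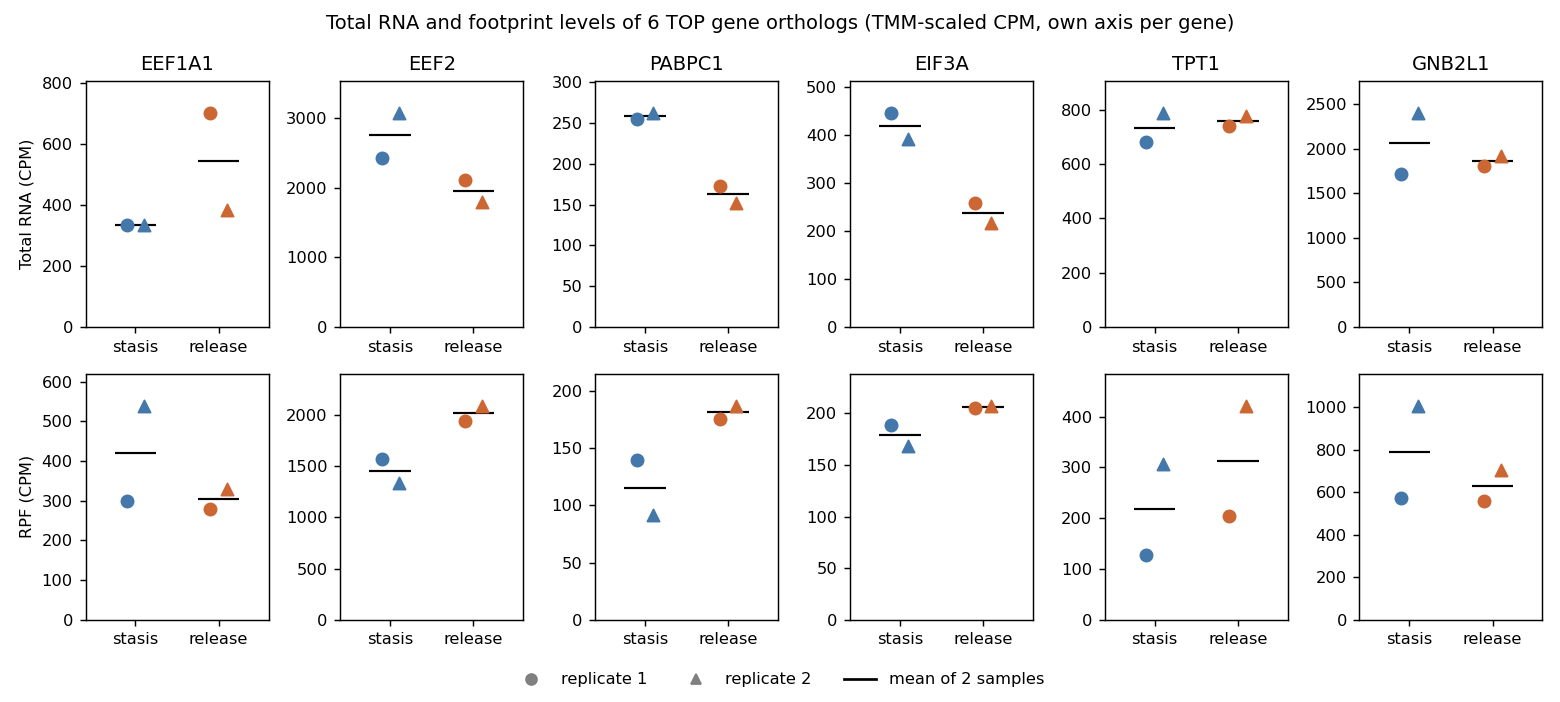
Total RNA (top) and RPF (bottom) level of each gene in CPM on an axis of its own that starts at 0, with 1 point per sample (circle, replicate 1; triangle, replicate 2) and a bar for the mean of the 2 samples of a state. For EEF2, PABPC1 and EIF3A the release samples lie below the stasis samples in RNA and above them in RPF.

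PABPC1 had 255 and 262 CPM of total RNA in the stasis samples and 173 and 152 CPM on release. The states did not overlap, and the mean fell from 259 ± 5.04 (SD, n = 2) to 162 ± 15.2 (SD, n = 2). This was a log2 fold change of -0.67 (SE 0.12, edgeR adjusted p = 0.0352). The order of the RPF levels was the reverse, with 140 and 91.3 CPM in stasis and 176 and 187 CPM on release. Both release samples were above both stasis samples, but the log2 fold change of 0.63 (SE 0.63) did not pass (edgeR adjusted p = 1). The low stasis value rested on 19 reads, the fewest of any gene here. As a share of the library this was 72.6 RPM (reads per 1000000 reads of the library, 95% exact binomial interval 43.7 to 113), beside 178 (134 to 232) in release replicate 2. In the deeper replicate 1 libraries the shares were 155 (136 to 176) in stasis and 207 (183 to 234) on release. Such intervals cover counting error only.

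EIF3A behaved alike in RNA. It had 446 and 392 CPM in stasis and 259 and 216 CPM on release, again without overlap. The mean fell from 419 ± 38.3 (SD, n = 2) to 237 ± 30.2 (SD, n = 2), the largest decrease of the 6 genes (log2 fold change -0.82, SE 0.15, edgeR adjusted p = 0.0359). Its RPF level was close to even over the samples when scaled with TMM, at 189 and 168 CPM in stasis and 206 and 207 CPM on release. As plain library shares the values were wider apart, at 210 and 134 RPM in stasis and 243 and 198 RPM on release, where the states overlapped. The release values were the higher, by a log2 fold change of 0.20 (SE 0.62, edgeR adjusted p = 1). The RNA calls of PABPC1 and EIF3A were lost when either release replicate was left out, which left 0 calls among all gene models by edgeR (before adjustment, 1560 were higher and 838 lower with p under 0.05 without release replicate 1, and 1423 and 523 without the other). The log2 fold changes stayed between -0.77 and -0.58 for PABPC1 and between -0.95 and -0.69 for EIF3A when each sample was left out in turn. With at least 10 reads required in every library, EIF3A missed the threshold (-0.93, edgeR adjusted p = 0.0549). Adjusted p over the 10 alternatives ran from 0.000385 to 0.343 for PABPC1 and from 2.94e-05 to 0.339 for EIF3A.

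EEF2 showed the same layout with a wider spread. Its total RNA came to 2436 and 3076 CPM in stasis, against 2120 and 1791 CPM on release. Every release sample was below every stasis sample, but the log2 fold change of -0.49 (SE 0.21) did not pass (edgeR adjusted p = 0.182). It passed without stasis replicate 1 (-0.66, edgeR adjusted p = 0.00437, in a range over the alternatives from 0.00437 to 0.683), where the remaining stasis sample was the higher of the pair. EEF2 had the most RPF reads of the 6 genes, from 278 to 2845, so that its counting error was the smallest. RPF levels were 1574 and 1336 CPM in stasis and 1944 and 2088 CPM on release. The release samples were above the stasis samples, with a mean of 2016 ± 102 against 1455 ± 168 (SD, n = 2 each), a log2 fold change of 0.47 (SE 0.76, edgeR adjusted p = 1). In RPM the exact 95% intervals of the RPF share were 1684 to 1819 and 941 to 1194 in stasis, and 2210 to 2379 and 1838 to 2156 on release. The samples of each state did not overlap with each other either, so that the spread of these library shares was larger than counting error. This holds for the shares only. In TMM-scaled CPM the release samples came in the other order, at 1944 and 2088, and no such intervals were calculated.

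EEF1A1, the partner of EEF2 in the elongation cycle, had the opposite order of samples in RNA. Its total RNA stood at 335 and 334 CPM in stasis, so close that the SD was 0.871 CPM, and 702 and 385 CPM on release. Both release samples were higher, but release replicate 1 stood far above the other. The log2 fold change was 0.70 (SE 0.29, edgeR adjusted p = 0.168). It was 0.20 without release replicate 1 and 1.07 without release replicate 2. It passed the threshold without stasis replicate 1 (0.70, edgeR adjusted p = 0.0229) and without stasis replicate 2 (0.69, edgeR adjusted p = 0.0204), and over all 10 alternatives adjusted p ran from 0.0204 to 0.660. RPF levels were 300 and 538 CPM in stasis and 279 and 329 CPM on release, which overlapped (log2 fold change -0.46, SE 0.63, edgeR adjusted p = 1). The high stasis value came from replicate 2, with 112 RPF reads, and without that sample the log2 fold change was 0.0033.

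Release replicate 1 also stood apart in muscle RNA. The 22 gene models with a muscle annotation among the 1998 entries of the paper's gene lists all had reads in every total RNA library. They held 0.195% and 0.206% of total RNA reads in the stasis samples and 0.554% and 0.234% in release replicates 1 and 2. The entries cover only part of the gene models, so these are not the shares of all muscle genes. In RPF the shares were 0.197% and 0.131% in stasis and 0.767% and 0.228% on release. Of the 21 that were tested, 18 had a log2 fold change in RNA above 0, where 48.0% of all gene models did. In RNA 1 was called higher (6.8% of all gene models), and 11 were higher and 1 lower with p under 0.05 before adjustment (2523 and 1893 of the 14595 gene models tested). Their part in the level of EEF1A1 was not tested. VIM, the vimentin ortholog of the same TOP list, had its highest RNA level in that sample as well (287 CPM, beside 165 in the other release sample and 136 and 86.0 in stasis).

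TPT1 had 680 and 789 CPM of total RNA in stasis and 739 and 780 CPM on release. The release values lay within the range of the stasis values, and the log2 fold change was 0.05 (SE 0.15, edgeR adjusted p = 0.856). It turned negative under other settings, with -0.10 when library totals replaced TMM. The RPF level of TPT1 differed more between replicates than between states, at 128 and 308 CPM in stasis and 204 and 421 CPM on release. In both states replicate 2, the shallower library, gave the higher value. The log2 fold change was 0.54 (SE 0.63, edgeR adjusted p = 1), and it was -0.03 without release replicate 2.

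GNB2L1 had 1720 and 2398 CPM of total RNA in stasis and 1801 and 1916 CPM on release. In CPM the release values again lay inside the stasis range (log2 fold change -0.15, SE 0.22, edgeR adjusted p = 0.683). As plain library shares GNB2L1 was at 1840 and 2472 RPM in stasis and lower, at 1722 and 1807 RPM, in both release samples. Its RPF level reached 573 and 1004 CPM in stasis, against 558 and 703 CPM on release, with a log2 fold change of -0.32 (SE 0.67, edgeR adjusted p = 1). Replicate 2 was the higher in RPF in both states here too. Without stasis replicate 2 the log2 fold change was above 0 in RNA (0.11) as in RPF (0.12).

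Over the 6 genes, total RNA was called lower for 2 and higher for 0, where 2.27% of all gene models were called lower and 6.8% higher. In CPM, both release samples lay below both stasis samples for 3 of the 6 in RNA (31.6% of all gene models) and above them for 1 (31.3%). As plain library shares GNB2L1 was below as well. In RPF, 0 of the 6 were called in either direction by edgeR, 0 had p under 0.05 before adjustment, and DESeq2 called 0. Of all gene models, 0% were called higher and 0.00685% lower by edgeR (53 and 108 with p under 0.05 before adjustment). Both release samples lay above both stasis samples in RPF for 3 of the 6 (12.8% of all gene models) and below them for 0 (10.3%). The 3 include EIF3A, whose states overlapped as plain library shares. Of the gene models tested, 5611 had no read in the stasis replicate 2 RPF library and 4106 had none in that of release replicate 2. These shares are thus not over gene models covered like the 6. The median log2 fold change of the 6 genes was -0.32 in RNA, beside -0.02 for all gene models tested, and 0.34 in RPF, beside 0.03. The RPF order turned round without stasis replicate 1 (0.15 for the 6 genes, 0.69 for all gene models), and without release replicate 2 the medians were 0.10 and 0.07.

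**Figure D2:**
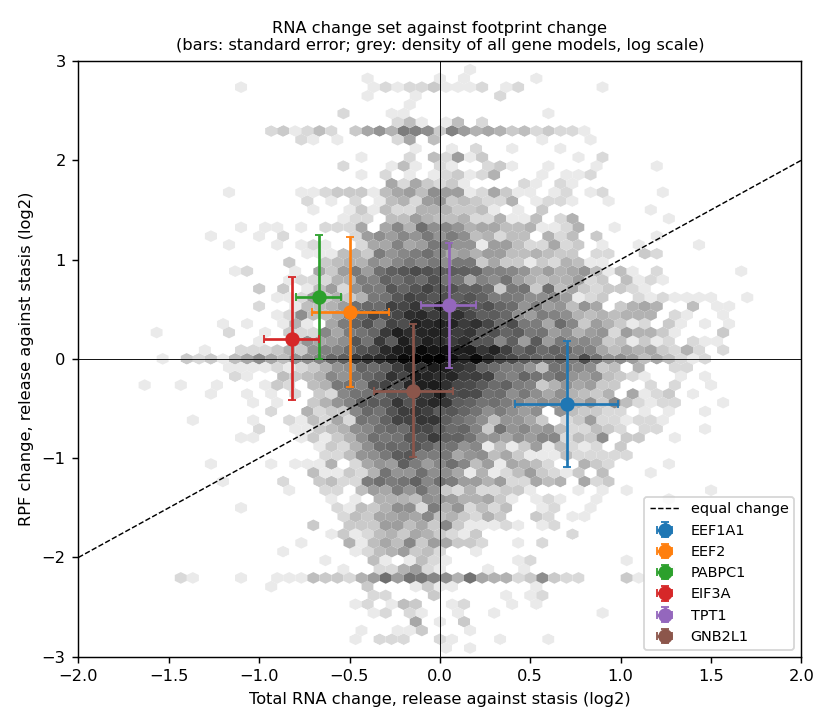
Log2 fold change of RPF (y axis) against that of total RNA (x axis), release against stasis, for the 6 genes with SE, over the density of the gene models tested (grey, log scale; 661 lie beyond the axes). EEF2, PABPC1 and EIF3A lie in the upper left and EEF1A1 in the lower right, on either side of the dashed line of equal change.

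Set against each other, the RNA and RPF values gave the ratio of RPF to RNA, a measure of how many footprints an mRNA carries for its level. The ratio was taken within each sample as RPF CPM over total RNA CPM, both counted over the same gene model. The coding share of each gene model was not known, so differences in this ratio between genes are description only. For PABPC1 the ratio was 0.547 and 0.348 in the stasis samples, against 1.01 and 1.23 in the release samples. EEF2 had 0.646 and 0.434 in stasis, against 0.917 and 1.17 on release. EIF3A had 0.424 and 0.430 in stasis, against 0.795 and 0.959 on release. In all 3 genes both release samples were above both stasis samples. For EEF1A1 the order was the reverse, with 0.896 and 1.61 in stasis and 0.397 and 0.856 on release. The value of 0.856 rested on 97 RPF reads, a share of 314 RPM with an exact binomial interval of 255 to 383. The gap between 0.856 and 0.896 was thus within counting error, and the states of EEF1A1 were not clearly apart. TPT1, at 0.188 and 0.390 in stasis and 0.276 and 0.540 on release, overlapped between the states. So did GNB2L1, at 0.333 and 0.419 and at 0.310 and 0.367.

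**Figure D3:**
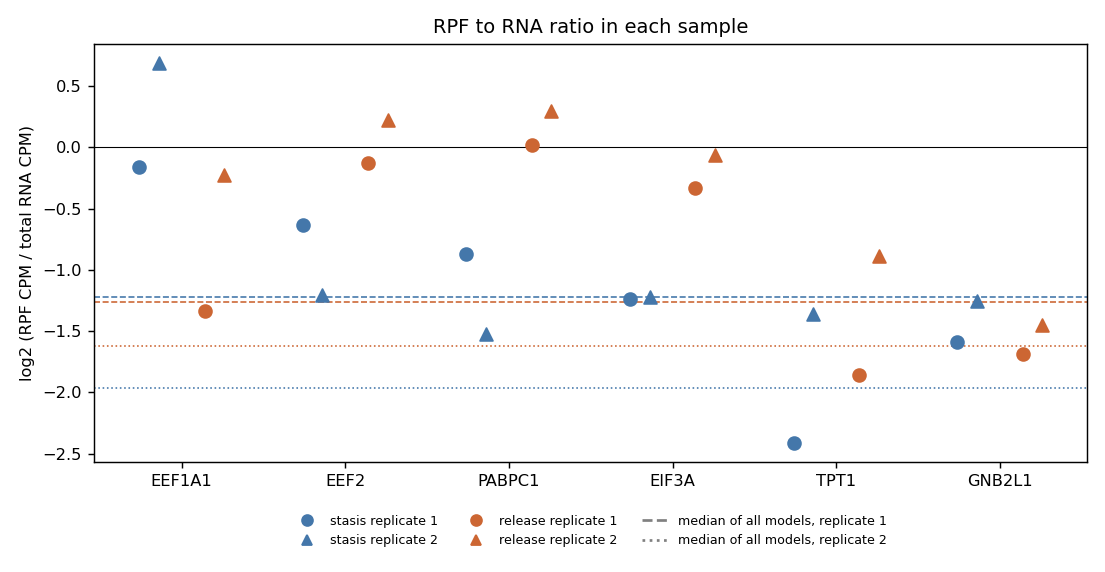
Log2 of RPF CPM over total RNA CPM for each gene in each sample (blue, stasis; orange, release; circle, replicate 1; triangle, replicate 2), with lines at the median of all gene models in each sample. The release points of EEF2, PABPC1 and EIF3A lie between -0.33 and 0.30, above all of their stasis points.

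The change of this ratio on release is the change in translational efficiency (TE), tested as the interaction of state and assay over all 8 libraries. It was 1.27 on the log2 scale for PABPC1 (SE 0.51), 1.02 for EIF3A (SE 0.49) and 0.96 for EEF2 (SE 0.47). It was -1.15 for EEF1A1 (SE 0.59), 0.51 for TPT1 (SE 0.66) and -0.17 for GNB2L1 (SE 0.54). None of these passed, with edgeR adjusted p of 0.819 for PABPC1 and EIF3A, 0.825 for EEF2, 0.828 for EEF1A1, 0.932 for TPT1 and 0.997 for GNB2L1. Before adjustment, 1 of the genes (PABPC1) was higher and 0 were lower with p under 0.05, and DESeq2 called 0 (smallest adjusted p 0.0805, for PABPC1). Of all gene models, 0% were called in either direction by edgeR (357 higher and 510 lower with p under 0.05 before adjustment), and DESeq2 called 3 higher and 21 lower. The paper, with another tool, reports many genes with higher TE on release. The TE change rests on the same libraries as the RNA and RPF changes and is no separate evidence of them. Its model treated the RNA and RPF libraries of a sample as independent. With a block for the sample of animals the TE change was 1.32 for PABPC1 (SE 0.66) and 1.03 for EIF3A (SE 0.65). It was then 0.96 for EEF2 (SE 0.71) and -1.05 for EEF1A1 (SE 0.65), and no gene of the 6 was called. The ratios of both release samples lay above those of both stasis samples for 3 of the 6 genes (13.7% of all gene models) and below them for 1 (12.2%). The gene below was EEF1A1, by 0.856 against 0.896 in its nearest samples, a gap within counting error. These shares too are over gene models of which many had no RPF read in replicate 2. The median TE change was 0.74, beside -0.03 for all gene models tested. This order also turned round without stasis replicate 1, with 0.53 for the 6 genes and 0.68 for all gene models. Without release replicate 1 the medians were 1.02 and -0.41, and without release replicate 2 they were 0.40 and -0.0021.

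The sign of the TE change was the same under each of the 12 alternatives for 4 genes. It ranged from 1.01 to 1.68 for PABPC1, from 0.91 to 1.31 for EIF3A, from 0.67 to 1.25 for EEF2 and from -1.61 to -0.54 for EEF1A1. The values nearest to 0 came without stasis replicate 2 for PABPC1 and EEF2, without release replicate 2 for EIF3A and without release replicate 1 for EEF1A1. For TPT1 and GNB2L1 the sign turned under at least 1 alternative. For EIF3A the estimated change was larger in RNA (-0.82, SE 0.15) than in RPF (0.20, SE 0.62). PABPC1 and EEF2 combined a lower RNA level with a higher RPF level, with estimates of similar size on the log2 scale. The SE of their RPF changes were 0.63 and 0.76. How the TE changes divide between RNA and RPF was not tested.

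**Figure D4:**
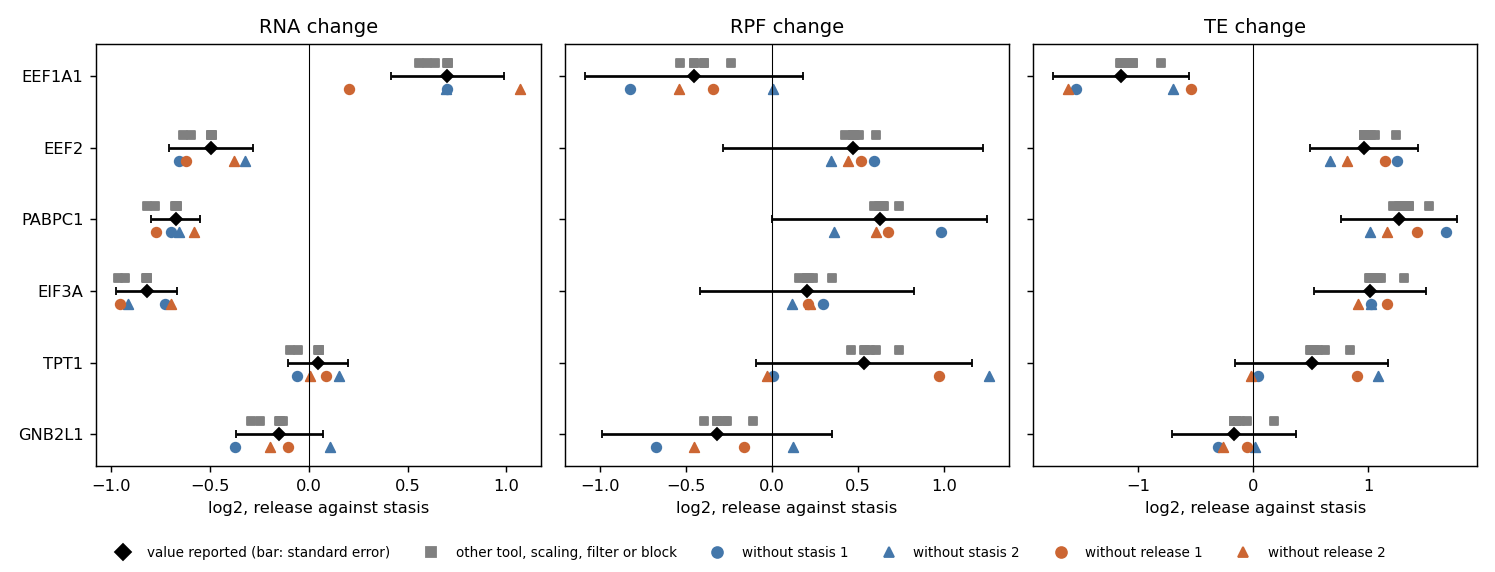
Log2 change on release in total RNA, RPF and TE for each gene as reported (diamond, with SE), under other tools, scalings, filters and blocks (squares) and with each sample left out (circles and triangles). In TE, EEF2, PABPC1 and EIF3A stay above 0 and EEF1A1 below 0 throughout, while TPT1 and GNB2L1 have points on both sides.

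The place of each gene among all gene models gives the same ratios without a choice of scale, though it depends on which gene models are ranked. In stasis, PABPC1 had a ratio above that of 59.3% and 56.2% of gene models (replicates 1 and 2), and on release above that of 83.3% and 89.4%. EEF2 went from 66.0% and 62.1% to 80.3% and 88.7%. EIF3A went from 49.4% and 61.8% to 75.6% and 84.6%. EEF1A1 stood at 77.4% and 91.9% in stasis and at 47.9% and 81.9% on release. TPT1 stood at 23.9% and 59.2% and then at 33.3% and 67.3%, and GNB2L1 at 40.5% and 61.1% and then at 37.5% and 54.0%. Replicate 2 gave the higher place except for EEF2 and PABPC1 in stasis. In replicate 2, 5611 and 4106 of the gene models tested had no RPF read, against 988 and 994 in replicate 1, which places any gene with reads higher.

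Among the 6 genes in stasis, the mean ratio was highest for EEF1A1 (1.25 ± 0.507, SD, n = 2), whose samples were both above those of EEF2 (0.540 ± 0.150). EEF2 overlapped with PABPC1 (0.448 ± 0.141), and PABPC1 with EIF3A (0.427 ± 0.00390). GNB2L1 (0.376 ± 0.0605) lay just below EIF3A and overlapped with TPT1 (0.289 ± 0.143). On release the order was PABPC1 (1.12 ± 0.153), EEF2 (1.04 ± 0.176), EIF3A (0.877 ± 0.116), EEF1A1 (0.626 ± 0.324), TPT1 (0.408 ± 0.186) and GNB2L1 (0.338 ± 0.0402), and each neighbour overlapped with the next. By mean ratio EEF1A1 thus moved down from the top of the order, though its nearest samples of the 2 states were within counting error of each other. TPT1 and GNB2L1 held the lowest places in both states.

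Tested against an equal share of RPF and RNA reads, the ratio in stasis was lower for 5 of the 6 genes (all but EEF1A1, edgeR adjusted p between 0.0108 and 0.0409) and higher for 0, where 44.3% of all gene models were called lower and 2.56% higher. On release it was lower for TPT1 (log2 ratio -1.30, SE 0.47, edgeR adjusted p = 0.0371) and GNB2L1 (-1.56, SE 0.39, edgeR adjusted p = 0.00731) and higher for 0, where 46.9% were called lower and 2.63% higher. The zero of this comparison depends on how the assays are scaled to each other. When the 7 gene models with over 1% of an RPF library were left out of the scaling, 0 of the 6 were called in either state, and with TMM over all 8 libraries 0 were called lower in either state and PABPC1 was called higher on release (log2 ratio 1.22, edgeR adjusted p = 0.0496). With a block for the sample of animals, 3 genes were called lower in stasis. In stasis 3 genes were called lower without stasis replicate 1 or 2, 2 without release replicate 1 and 1 without release replicate 2. On release 0 were called lower without either release replicate, and EEF1A1 joined the calls without stasis replicate 1 (log2 ratio -0.87, edgeR adjusted p = 0.0275).

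The rest of the TOP list holds further genes of the translation pathway. Of the 10 other genes that are not ribosomal protein genes, edgeR called 0 in total RNA. Before adjustment 1 was higher and 2 were lower with p under 0.05, beside 2523 and 1893 of the 14595 gene models tested. Of the 10, edgeR called 0 in RPF and 0 in TE, and 0 had p under 0.05 before adjustment in either measure, though 1 had no RPF reads. Their log2 fold changes in RNA ran from -0.33 for the ortholog of the RPS6KA kinases to 1.03 for VIM (SE 0.33, edgeR adjusted p = 0.104). Over the 9 with RPF reads, TE changes ran from -0.88 for VIM to 0.59 for NPM1, a nucleolar chaperone, with a median of 0.06. Further subunits of eIF3 were EIF3E and EIF3H. EIF3E had 242 and 271 CPM in stasis and 259 and 272 CPM on release (log2 fold change 0.05, edgeR adjusted p = 0.816), and EIF3H had 154 and 193 CPM, then 149 and 169 CPM (-0.13, edgeR adjusted p = 0.602). The TE changes of these subunits were 0.25 and -0.15, and the difference from EIF3A was not tested. EIF4B, an initiation factor that stimulates RNA unwinding, had 326 and 331 CPM of RNA in stasis and 335 and 331 CPM on release.

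EEF1B2 and EF1 delta belong to the complex that reloads EEF1A1 with GTP. The better covered of the pair of EEF1B2 gene models (GSOIDT00014951001) had 82.6 and 104 CPM of RNA in stasis and 92.7 and 104 CPM on release. EF1 delta (GSOIDT00003404001), the paper's reference gene for qPCR and not in the TOP list, had a log2 fold change in RNA of -0.15 (SE 0.10, edgeR adjusted p = 0.336). The other EEF1B2 gene model (GSOIDT00004766001) had 0 RPF reads in all 4 RPF libraries, so that no RPF or TE value is given for it. Neither EEF1B2 gene model carries the spliced leader in the paper's list.

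Among the 72 ribosomal protein genes of the list, 1 was called higher and 0 lower in total RNA, and 0 were called in RPF or TE (0 in RPF, and 1 higher and 1 lower in TE, with p under 0.05 before adjustment). Their median TE change was -0.11 with 27 of 72 above 0, including 1 gene without RPF reads in stasis, where the 6 genes had a median of 0.74 with 4 of 6 above 0. In RNA their median was 0.09 with 48 of 72 above 0, against -0.32 with 2 of 6. In stasis the median log2 ratio of RPF to RNA was -1.35 for the ribosomal protein genes, -1.17 for the 6 genes and -1.19 for all gene models. On release it was -1.50, -0.52 and -1.28. Where 10 reads were required of every library, the medians of the 6 genes and of all gene models were -1.64 and -0.83 in stasis and -0.92 and -0.89 on release, so that the 6 genes were not above all gene models in either state. Without stasis replicate 1 the medians in stasis were -1.26 and -1.98. No test of a difference between these lists was made.

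As a description of shared patterns, log2 CPM was centred within each assay and compared over the 8 libraries, which share the same samples of animals. EEF2 and PABPC1 were most alike (Pearson r = 0.94), followed by PABPC1 and EIF3A (r = 0.82) and EEF2 and EIF3A (r = 0.77). EEF1A1 was negatively related to each of them, with r of -0.71 to PABPC1 and -0.55 to both EEF2 and EIF3A. TPT1 and GNB2L1 had r = 0.58 with each other, and between -0.41 and 0.42 with the rest. Of the 1798 other gene models that reached 10 reads in each of the libraries, those closest to the mean profile of the 6 were GSOIDT00011542001 (r = 0.96), GSOIDT00007163001 (r = 0.93) and GSOIDT00000651001 (r = 0.91), to which the sources used here give no name. Of the 20 closest, 1 was in the TOP list (NPM1, r = 0.87), where 4.28% of the 1798 are. The mean profile averages genes that ran against each other, such as EEF1A1 and PABPC1, so it is not a pattern that all 6 share.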

How the data were processed

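Per the labels and methods, the authors clipped adapters, removed reads matching rRNA or tRNA with Bowtie2 2.1.0, mapped the rest to the *O. dioica* genome with TopHat2 2.0.13, and took counts for protein-coding Genoscope gene models with featureCounts. The deposited values are these counts, without normalization. Genome build and strand setting: not given in the sources used here. All 8 columns matched a sample title and 0 did not. Of 17178 RefSeq genes, 0 carried the identifiers of the table, so no coordinates or sequences are given.

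Tests were run in edgeR 4.0.16 (R 4.3.3) with TMM within each assay, on the 14595 gene models that reached 100 reads when all libraries were summed, which held 99.9% of the reads. Total RNA and RPF were fitted on 4 libraries each, and TE and ratios on all 8. The paper used babel for TE, which was not used here. With babel it reports many genes with significantly higher TE on release and far fewer with lower TE, where edgeR called 0% in either direction. In RNA too it reports more genes in each direction than were called here. The reason for these differences was not tested. Percentages of all gene models called are over the same fit. The genes named were the 6 orthologs, the other non-ribosomal genes of the TOP list that pass a test or end a range (RPS6KA, VIM, NPM1), EF1 delta, and the 3 gene models closest in pattern. EIF3E, EIF3H, EIF4B and EEF1B2 were named after their values were seen. Muscle genes were found by keywords in the paper's annotation. The 6 genes and all lists were chosen with earlier results of these data known. Alternatives were library totals, DESeq2 1.42.0, other filters, scalings and blocks, and each sample left out. Scripts were tested on simulated data. Figures used Python 3.11.15, pandas 2.3.3 and matplotlib 3.10.9.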

Additional observations from a re-analysis of the deposited data

How the results depend on the processing

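With 2 samples a state, and RPF libraries of replicate 2 with 261745 and 308680 reads, precision was low: differences of over 2 standard errors, such as the TE change of PABPC1, did not pass, and the RNA calls that passed were over 5 standard errors from 0. Where a sample was left out, the lone sample of that state was assumed to vary like the others. In total RNA, with each sample left out, between 0 and 1 of the 6 genes were called higher and between 0 and 3 lower, and 1 was called lower where 10 reads were required of every library. TPT1 turned to -0.10 with library totals and -0.054 with 10 reads required, and with a sample left out it ran from -0.059 to 0.15, and GNB2L1 from -0.37 to 0.11. In RPF, with a sample left out, EEF1A1 ran from -0.83 to 0.0033, TPT1 from -0.028 to 1.26 and GNB2L1 from -0.67 to 0.12. In TE, TPT1 ran from -0.021 to 1.08 and GNB2L1 from -0.31 to 0.013, and GNB2L1 turned to 0.18 with library totals. No gene was called in RPF or TE under any alternative run.

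The ratio in stasis was called lower for 3 genes with library totals, 0 without the gene models over 1% of an RPF library, 0 with TMM over all 8 libraries, 3 with a block for the sample of animals, and between 1 and 3 with a sample left out. On release it was 1 with library totals, 1 with DESeq2, 0 without those gene models, 0 with TMM over all 8 libraries (1 higher), and between 0 and 3 with a sample left out. EEF1A1 in stasis turned to -0.12 with 10 reads required and ran from -0.029 to 0.67 with a sample left out, and EEF2 turned to 0.053 with TMM over all 8 libraries. On release EEF1A1 turned to 0.22 and EIF3A to 0.87 with TMM over all 8 libraries, EIF3A to 0.45 without the gene models over 1%, EEF2 to -0.35 and PABPC1 to -0.25 with 10 reads required, and EEF2 ran from -0.11 to 0.17 with a sample left out. The cause of these shifts was not tested.

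Counts over all gene models moved too. In total RNA they were 993 higher and 332 lower, 94 and 20 with 10 reads required (1804 gene models tested), 888 lower with library totals, and between 0 and 2640 higher and 0 and 2156 lower with a sample left out. The median RNA change of all gene models moved from -0.02 to -0.16 with library totals, and that of TE from -0.03 to 0.22. Leaving out a sample moved it further, to 0.68 in TE and 0.69 in RPF without stasis replicate 1, and to -0.41 in TE and -0.27 in RPF without release replicate 1. For TE, DESeq2 called 3 higher and 21 lower, and leaving out a stasis sample gave up to 44 and 123. For RPF, up to 8 higher and 33 lower were called with a sample left out. The ratio in stasis had 374 higher and 6468 lower, 1197 and 1401 with TMM over all 8 libraries, 816 and 2652 without the gene models over 1%, 130 and 2328 with the block for animals, 57 and 756 with 10 reads required, and between 153 and 840 higher and 1601 and 6085 lower with a sample left out. On release it had 384 and 6849, 1156 and 1006 with TMM over all 8 libraries, 735 and 2523 without those gene models, 165 and 2563 with the block for animals, 74 and 851 with 10 reads required, 4402 lower with library totals, and between 0 and 758 higher and 0 and 7994 lower with a sample left out.

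With a replicate block, 2 of the 6 genes were lower in total RNA and 0 were called in RPF or TE. The TE change was 1.29 for PABPC1, 1.03 for EIF3A, 0.96 for EEF2 and -1.15 for EEF1A1. Same-numbered samples of the states deviated together with a correlation across 1804 gene models of 0.16 in total RNA and 0.62 in RPF, and the labels do not say what a number shares. Over all gene models the block gave 1 higher and 0 lower in RPF, against 0 and 1.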
